A study of Mus musculus with 6 samples.

Results

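Bone morphogenetic proteins (BMPs) and growth and differentiation factors (GDFs) are secreted ligands, and the Id genes are among the best known targets of the signal they send. The set described here holds 10 genes of the 57180 with an identifier in the deposited count table. They are the ligand genes Bmp2, Bmp3, Bmp4, Bmp6, Gdf5, Gdf6 and Gdf10 and the target genes Id1, Id2 and Id3, and were taken by symbol. All 10 were found in the table, each by 1 Ensembl identifier. RNA came from cells isolated from calvaria, the bones of the skull vault, and kept in osteogenic medium with 10% serum, ascorbate and 4 mM β-glycerophosphate. The 3 wt libraries are from C57BL/6 mice. The 3 gld libraries, labelled FasL KO, are from B6Smn.C3-Faslgld/J mice, which are homozygous for the gld mutation of Fasl, a point mutation in the gene of the death ligand FasL. The design text also names gld cells given recombinant FasL, an arm not analysed here. The labels give no age or sex of the mice. They do not say if a group's libraries are separate mice or cultures, and p-values therefore reflect just the variation among these libraries, which could be technical.

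BMP ligands are dimers of the TGF-β superfamily. They bind pairs of type I and type II receptor kinases, which phosphorylate Smad1, Smad5 and Smad9, and these enter the nucleus with Smad4. Antagonists such as gremlin and noggin bind the ligand outside the cell. Id proteins have a helix-loop-helix domain but no basic region, so they pair with basic helix-loop-helix transcription factors and keep them from DNA. In the skull, BMP signalling is known for its part in osteoblast differentiation and in the sutures between the bones.

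Total counts ran from 2011173 to 3105322 in the wt libraries and from 4048258 to 5245546 in the gld libraries, so depth differed with genotype. The 20 most abundant genes took 17.6% to 19.5% of counts in wt and 27.1% to 28.3% in gld. Levels are given as CPM, counts scaled to library size by the TMM method, as mean ± SD over 3 libraries. The libraries were made from transcript 3′ ends and the counts are not divided by gene length. Each gene is tested between libraries, and levels of different genes are not tested against one another. CPM of several genes are added only in the marker sums, where abundant genes weigh most. Fasl had 0 counts in all 6 libraries, which checks neither genotype. Of 13 osteoblast markers 6 were tested: Col1a1, Col1a2, Cdh11, Alpl, Ibsp and Runx2, with 100 to 557769 counts in all. The other 7, Sp7, Bglap, Bglap2, Spp1, Ifitm5, Pth1r and Dlx5, had 0 to 41 counts.

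Of the 10 genes, 6 had enough counts to be tested: Bmp2, Gdf5, Gdf6, Gdf10, Id2 and Id3. Id2, Id3 and Bmp2 were higher in gld, Gdf6 and Gdf10 were lower, and Gdf5 did not pass. In edgeR's quasi-likelihood test at an adjusted p of 0.05, 17.4% of the 8692 genes tested passed, 9.74% higher and 7.69% lower in gld. Against that, 3 members were called higher and 2 lower. Groups did not overlap in 33.3% of tested genes, and in 5 of the 6 tested members. The members were chosen with earlier results of these data known, so these counts describe the set and test nothing about it. The other members, Bmp3, Bmp4, Bmp6 and Id1, had 0 to 17 counts over all libraries.

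**Figure D1:**
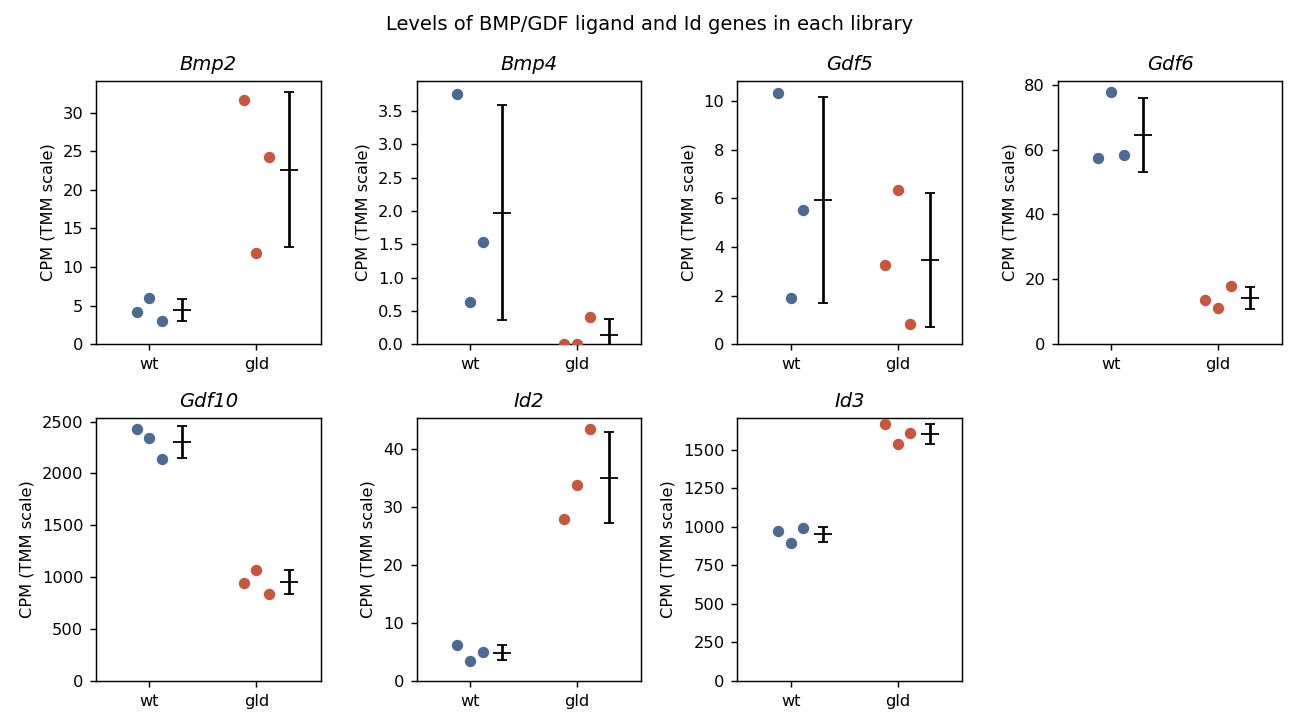
CPM on the TMM scale (vertical axes, from 0) of the 7 members with more than 3 counts in all, for the 3 wt (blue) and 3 gld (red) libraries. Points are libraries, and black marks are the mean and SD. The SD bar of Bmp4 in gld is cut at 0. Points of the groups do not overlap for Bmp2, Bmp4, Gdf6, Gdf10, Id2 and Id3, and they overlap for Gdf5.

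Bmp2 encodes an osteogenic ligand known for starting bone repair. It lies on chromosome 2 (133552159 to 133562885, plus strand, GRCm38; ENSMUSG00000027358). It stood at 4.23, 6.01 and 3.07 CPM in wt 1, 2 and 3 and 31.7, 11.9 and 24.2 CPM in gld 1, 2 and 3. All gld libraries were above all wt libraries, and gld 2 was well below the other two. The mean went from 4.44 ± 1.48 to 22.6 ± 10.0 CPM (SD, n = 3), a log2 fold change of 2.34 ± 0.52 (SE) with an edgeR adjusted p = 0.00532. The wt values rest on 38 counts in all. Leaving out 1 library at a time gave 2.00 to 2.64, with an adjusted p of up to 0.0434 in edgeR, and limma-voom gave an adjusted p = 0.0464.

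Gdf6 and Gdf10 moved the other way. Gdf6, a ligand needed for the coronal suture and for some joints, lies on chromosome 4 (9844372 to 9862345, plus strand; ENSMUSG00000051279). It had 57.3, 77.8 and 58.3 CPM in the wt libraries and 13.7, 11.1 and 17.9 CPM in the gld libraries. The highest gld library stayed far below the lowest wt library. Gdf6 fell by 2.17 ± 0.28 (SE) on the log2 scale, 4.51-fold, from 64.5 ± 11.5 to 14.2 ± 3.42 CPM (SD, n = 3; edgeR adjusted p = 6.31e-05).

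Gdf10, also called Bmp3b, is the closest relative of Bmp3, which counteracts osteogenic BMPs. It lies on chromosome 14 (33923587 to 33937983, plus strand; ENSMUSG00000021943). It was measured at 2431, 2344 and 2136 CPM in the wt libraries and 944, 1070 and 839 CPM in the gld libraries, without overlap and with little spread in either group. It fell by 1.28 ± 0.11 (SE) on the log2 scale, 2.42-fold, from 2304 ± 151 to 951 ± 116 CPM (SD, n = 3; edgeR adjusted p = 1.15e-06). With 19547 counts in wt and 11926 in gld it was, beside Id3, the member with the most reads behind its value. The RefSeq table (GRCm38.p6) gives the bases before its start, shown because Gdf10 is the called ligand with an entry there; capitals mark a match to CAGAC, the Smad box.
Gdf10, chr14:33923337-33923586, plus strand: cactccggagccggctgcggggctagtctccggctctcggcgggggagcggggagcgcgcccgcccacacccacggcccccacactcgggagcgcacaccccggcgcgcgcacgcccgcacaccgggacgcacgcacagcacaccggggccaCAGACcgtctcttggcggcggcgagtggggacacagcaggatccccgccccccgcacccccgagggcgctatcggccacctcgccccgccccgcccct

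Gdf5, a ligand of developing joints, did not pass. It lies on chromosome 2 (155941023 to 155945367, minus strand; ENSMUSG00000038259). It had 10.3, 1.90 and 5.53 CPM in the wt libraries and 3.24, 6.33 and 0.821 CPM in the gld libraries, so libraries of 1 genotype differed among themselves as much as the genotypes did. Its log2 fold change was −0.76 ± 0.96 (SE; edgeR adjusted p = 0.699), on 46 counts in wt and 41 in gld. The annotation puts a gene model on the opposite strand, Gm15557, over it, and reads of the 2 cannot be told apart without a stated strand setting.

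Bmp4, a ligand of skull and limb development, was too sparse for the test, with wt counts of 8, 2 and 5 and gld counts of 0, 0 and 2. These counts came to 3.76, 0.632 and 1.54 CPM in the wt libraries and 0, 0 and 0.411 CPM in the gld libraries. It lies on chromosome 14 (46383520 to 46390669, minus strand; ENSMUSG00000021835), under 2 gene models of the opposite strand. The groups' values did not overlap, and the pooled counts stood 11.1-fold higher in wt, with a 95% exact counting interval of 2.59 to 100.2 that leaves out the spread between libraries. In a fit without the filter on low counts Bmp4 did not pass (edgeR adjusted p = 0.482), nor did it in DESeq2 (adjusted p = 0.291).

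Bmp3, made by mature osteoblasts and known to restrain bone mass, was at 0 in wt and had 2 counts in gld, both in gld 2 (chromosome 5, 98854415 to 98884396, plus strand; ENSMUSG00000029335). Bmp6, a ligand of cartilage and of iron balance, was listed at 0 in every library (chromosome 13, 38345107 to 38500302, plus strand; ENSMUSG00000039004). The upper limit for a count of 0, taken as 3 counts, is 0.351 CPM for pooled wt and 0.237 CPM for pooled gld. That limit covers counting error only, and the table also held more zeros for genes whose end lies in several annotated transcripts. Of 11160 protein-coding genes with at least 99% of their last 300 exonic bases in a single transcript, 37.8% had 0 counts in all, against 57.3% of the other 10584. Among the members, 100% of these bases lie in a single transcript for Bmp2, Bmp6, Gdf5, Gdf6, Gdf10 and Id3, 62.3% for Bmp4, 0.7% for Id2, and 0% for Bmp3 and Id1.

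The Id genes of the set that had counts, Id2 and Id3, were both higher in gld. Id4, outside the set, was lower, as given below. Id3 lies on chromosome 4 (136143497 to 136145755, plus strand; ENSMUSG00000007872). Its level was 970 CPM in wt 1, 896 in wt 2 and 988 in wt 3, and 1666, 1535 and 1605 CPM in gld. The gap between the groups was several times the spread within either. Id3 rose by 0.75 ± 0.10 (SE) on the log2 scale, 1.68-fold, from 951 ± 49.1 to 1602 ± 65.7 CPM (SD, n = 3; edgeR adjusted p = 5.73e-05). Scaled by library size alone the log2 fold change was 0.59.

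Id2 had the largest fold of the tested members. It lies on chromosome 12 (25093799 to 25097140, minus strand; ENSMUSG00000020644). It had 6.11, 3.48 and 4.91 CPM in the wt libraries and 27.9, 33.8 and 43.3 CPM in the gld libraries, with gld 3 the highest. Id2 rose by 2.87 ± 0.41 (SE) on the log2 scale, 7.30-fold, from 4.83 ± 1.32 to 35.0 ± 7.76 CPM (SD, n = 3; edgeR adjusted p = 0.000133). The wt values rest on 40 counts. Its end lies in several annotated transcripts, as given above, and how many of its reads were counted was not tested. Id1, the target most often read as a sign of BMP signalling, was listed at 0 in all 6 libraries, and its end is shared as well (chromosome 2, 152736251 to 152737410, plus strand; ENSMUSG00000042745).

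**Figure D2:**
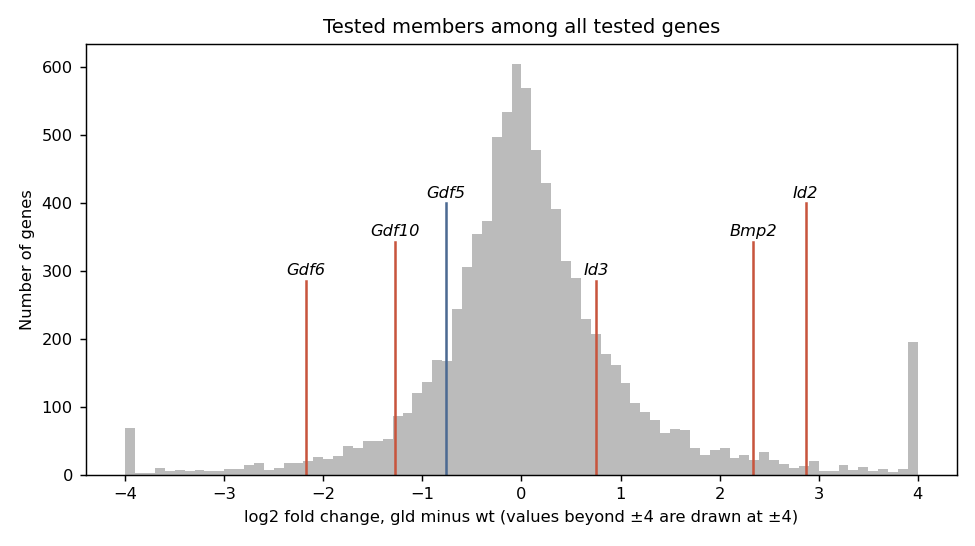
Number of genes (vertical axis) by log2 fold change of gld minus wt (horizontal axis) for the 8692 genes tested, with the 6 tested members as lines (red: past an adjusted p of 0.05; blue: not). Values beyond ±4 are drawn at ±4. Id2, Bmp2 and Gdf6 lie in the tails, while Id3 sits on the shoulder, where 19.0% of genes have a larger increase.

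Among all tested genes, 3.38% had a larger increase than Id2, 4.58% than Bmp2 and 19.0% than Id3, while 2.58% fell further than Gdf6 and 6.66% further than Gdf10. The median log2 fold change of all tested genes was 0.02. Scaled by library size alone it moved to −0.14, with 720 genes higher and 975 lower where TMM gave 847 and 668. The directions of the 5 called members held under both.

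A stretch of Id2 is shown because Id2 had the largest increase of the tested members (GRCm38.p6, RefSeq table). The start that RefSeq gives for Id2 lies inside the gene span printed above, so the bases before it are not those before the outermost annotated start. Of the 250 bases before the RefSeq start, 161 lie in annotated exons and only the other 89, inside the gene span, are printed. Capitals mark matches to GGCGCC, a GC-rich site of BMP Smads, CAGAC, the Smad box, and CANNTG, the E-box of helix-loop-helix factors, on either strand.
Id2, chr12:25096254-25096342, minus strand: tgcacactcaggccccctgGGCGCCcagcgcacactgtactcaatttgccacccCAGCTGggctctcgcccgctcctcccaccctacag
In the 250 bases before the RefSeq start, Id2 had 1 match to GGCGCC and 1 to CANNTG, Id3 had 2 to CAGAC and Gdf10 had 1 to CAGAC. The Id3 window also lies inside its gene span, with all 250 bases in annotated exons, while the Gdf10 window has 0 bases in exons and ends at the base before the gene. Of 32851 windows of this length in the table, 9.59% held GGCGCC, 42.2% CAGAC and 66.2% CANNTG. These shares are over windows of any base content. G and C made up 62.8% of the Id2 and Id3 windows and 78.8% of the Gdf10 window, against a median of 52.4% over all windows. The shares among windows of like content were not computed. The GC-rich site and the E-box read the same on both strands, and the motifs do not contain one another. A match describes the letters alone, and nothing in these data measures binding. The table had entries for 5 of the 10 members: Bmp4, Bmp6, Gdf10, Id2 and Id3. Bmp4 had 3 matches to CANNTG, and Bmp6 had 1 to CAGAC and 2 to CANNTG.

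The rest of the pathway was listed as 77 other ligands, receptors, Smads, antagonists and targets, and 38 of them were tested. In gld 6 were higher and 9 were lower, and 23 did not pass, with a median log2 fold change of −0.02 beside 0.02 over all tested genes. Beside these and the list counts below, 9.74% of all tested genes were higher and 7.69% lower. The lists were chosen with earlier results of these data known, so their counts test nothing about them. Of 14 other ligand genes only Gdf11, a relative of myostatin, could be tested, at −0.25 ± 0.23 (SE; edgeR adjusted p = 0.580). Another 8 of them were at 0 in every library. Bmp7, looked up after its counts were seen, had 0 counts in wt and 4, 12 and 34 in gld.

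Receptors and co-receptors gave 1 higher and 2 lower of 8 tested of 14, with a median of −0.02. Tgfbr3 (betaglycan), a co-receptor of TGF-β, inhibin and BMPs, fell by 1.55 ± 0.16 (SE) on the log2 scale, from 746 ± 104 to 254 ± 55.5 CPM (SD, n = 3; edgeR adjusted p = 8.65e-06). Neo1 (neogenin), the receptor of repulsive guidance molecules, rose by 1.63 ± 0.17 (SE), from 73.7 ± 15.2 to 229 ± 14.7 CPM (edgeR adjusted p = 9.30e-06). Bmpr1b, the type I receptor preferred by Gdf5, had 11, 10 and 16 counts in the wt libraries and none in gld. Bmpr1b passed the filter on low counts only through wt, so it could hardly be called higher. Its wt mean stood 18.6-fold above a floor of 3 counts over gld. That ratio leaves out counting error in wt and the spread between libraries. For Bmpr1b the edgeR adjusted p = 0.0101 ran up to 0.0861 when single libraries were left out and was 0.0703 with the replicate block. The main receptors Bmpr1a and Bmpr2, named after their values were seen, did not pass, at −0.04 ± 0.13 and −0.21 ± 0.14 (SE; edgeR adjusted p = 0.907 and 0.367).

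Of 9 tested Smad genes and Smad regulators of 12, only Smad1 passed, with a list median of 0.23. Smad1, a transducer of the BMP signal, fell by 1.01 ± 0.20 (SE) on the log2 scale, from 129 ± 25.1 to 63.7 ± 6.57 CPM (SD, n = 3; edgeR adjusted p = 0.00182). Smad5, Smad9, Smad4, Smad6, Smad7, Smurf2, Lemd3 and Ppm1a did not pass.

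Secreted antagonists and modulators changed in both directions, with 4 higher and 3 lower of 11 tested of 21 and a median of 0.09. Grem1, which encodes gremlin, an antagonist of BMP2 and BMP4, had 5936, 7113 and 5629 CPM in the wt libraries and 560, 516 and 552 CPM in the gld libraries. It fell by 3.52 ± 0.11 (SE) on the log2 scale (edgeR adjusted p = 5.21e-11). Nog, which encodes noggin, an antagonist that binds BMPs outside the cell, fell by 1.92 ± 0.30 (SE; edgeR adjusted p = 0.00035). Htra3, a protease known to bind TGF-β family ligands, rose by 3.26 ± 0.16 and follistatin (Fst), which binds activins and some BMPs, by 0.91 ± 0.14 (SE; edgeR adjusted p = 3.84e-09 and 0.000249). The other called genes were Crim1, lower, and Fstl1 and Chrdl1, higher, and the adjusted p of Chrdl1 ran up to 0.0807 in edgeR when single libraries were left out.

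**Figure D3:**
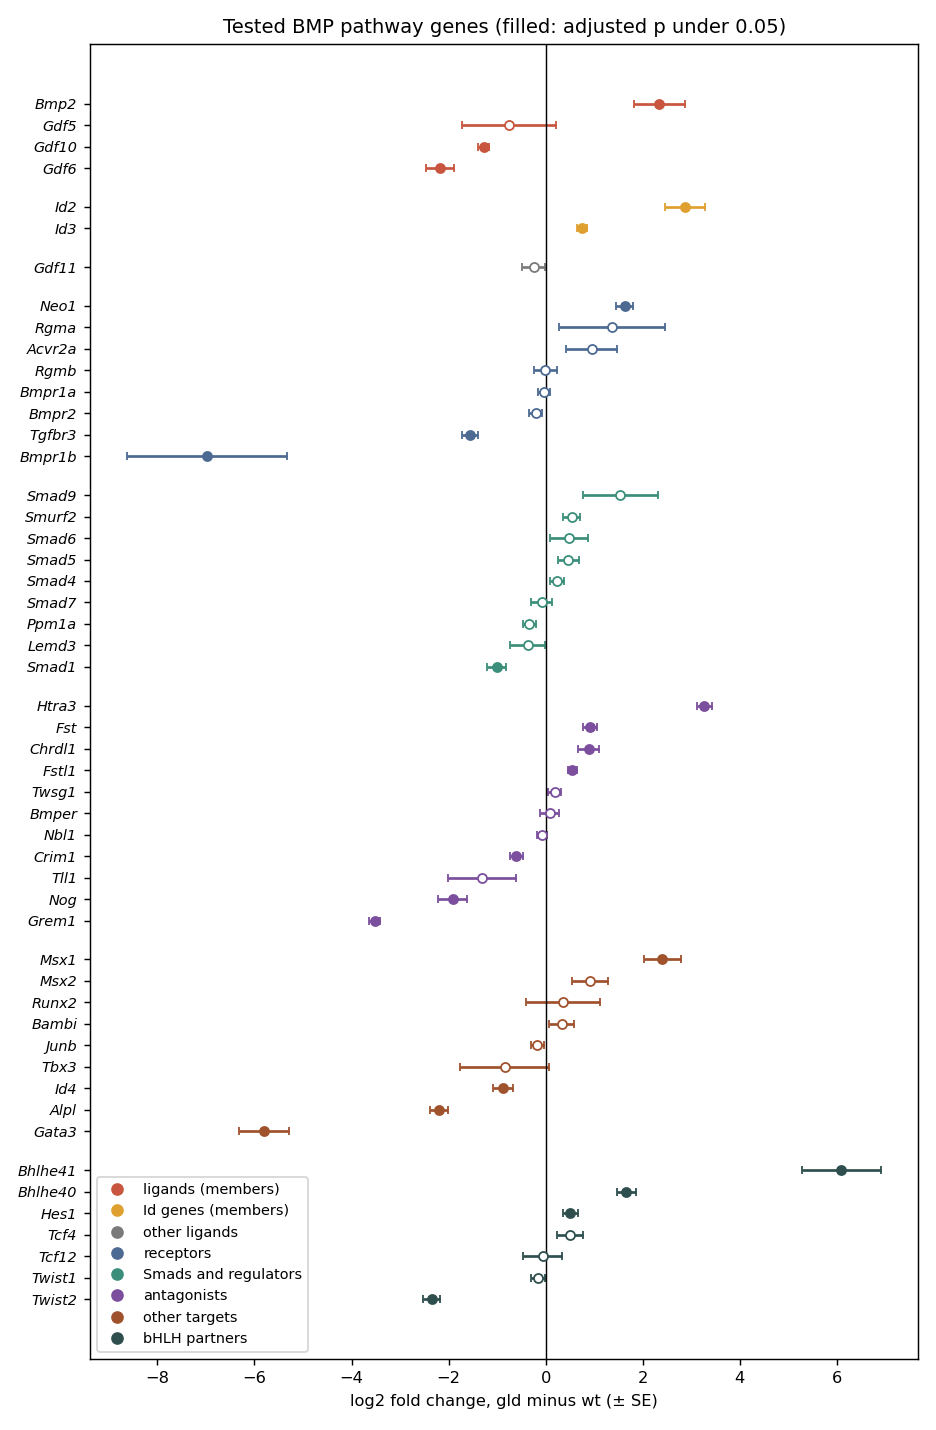
Log2 fold change of gld minus wt with its SE (horizontal axis) for each tested gene of the member set and of the pathway lists, by role (colours). Filled points are past an edgeR adjusted p of 0.05, open points are not. Each role with more than 1 called gene, apart from the Id members, holds filled points on both sides of 0. Bmpr1b has no count in gld, so its fitted value depends on the prior count and is no bound.

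Other genes that BMP Smads are known to drive changed in both directions. The list held 18, of which 11 were tested, and gld was higher for 1, lower for 3 and not past the test for 7, with a median of −0.09. Id4, the fourth gene of the Id family, fell by 0.87 ± 0.20 (SE) on the log2 scale, from 91.0 ± 2.18 to 49.6 ± 8.54 CPM (SD, n = 3; edgeR adjusted p = 0.00679). Msx1, a homeobox gene of the skull, rose by 2.40 ± 0.38 (edgeR adjusted p = 0.000397). Alkaline phosphatase (Alpl), an enzyme of mineralization, fell by 2.20 ± 0.18, and Gata3, a transcription factor, fell by 5.80 ± 0.51 (SE; edgeR adjusted p = 7.97e-07 and 1.48e-06). Smad6, Smad7 and Bambi, feedback inhibitors of the pathway, did not pass. Whether Id4 and the other targets differ from Id2 and Id3 in their response was not tested.

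Among the basic helix-loop-helix genes, the family that Id proteins act on, 3 were higher and 1 was lower of 7 tested of 14, with a median of 0.50. Twist2, a repressor of osteoblast maturation, fell by 2.34 ± 0.18 (SE; edgeR adjusted p = 2.89e-07). Bhlhe40 rose by 1.66 ± 0.20 (SE; edgeR adjusted p = 2.73e-05). Bhlhe41 had 3 counts in wt and 339 in gld, a pooled ratio of 76.2 with a 95% exact counting interval of 25.9 to 371 (edgeR adjusted p = 7.80e-05). Bhlhe41 passed the filter on low counts only through gld, so it could hardly be called lower. The call on the Notch target Hes1, at 0.51 ± 0.16 (SE; edgeR adjusted p = 0.0398), was lost in 8 of 13 alternatives. Tcf4, Tcf12 and Twist1 did not pass, and Tcf3 was listed at 0.

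For each called member, the genes outside the set were ranked by the root mean square difference of their centred log2 CPM profile over the 6 libraries, among 4184 protein-coding genes with a mean of at least 50 counts. The nearest to Bmp2 were Jag1 (0.34) and Lum (0.40). Nearest to Gdf6 were Bag2 (0.11) and Adam19 (0.13), and to Gdf10 Bpgm (0.06) and Cers6 (0.08). For Id2 they were Agtr2 (0.26) and 1500009L16Rik (0.27), and for Id3 the mitochondrially encoded genes mt-Nd1 and mt-Atp6 (0.06 each). With 2 groups of 3 libraries this likeness is mostly that of the difference between genotypes.

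**Figure D4:**
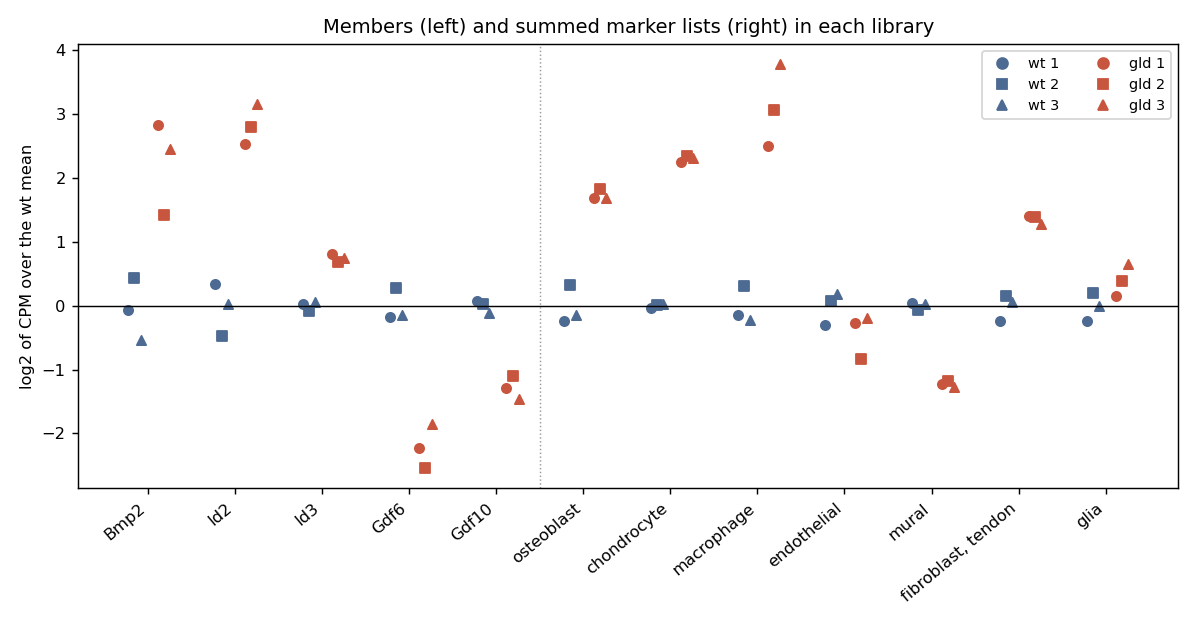
Log2 of the CPM over the wt mean (vertical axis) in each library for the 5 called members (left) and for the summed level of 7 cell type marker lists (right). Colours are genotypes and symbols are libraries. The sums for macrophage, chondrocyte, osteoblast and fibroblast markers are higher in gld, as are Bmp2, Id2 and Id3. The mural sum is lower in gld, as are Gdf6 and Gdf10. Few genes, named in the text, make up most of the macrophage, chondrocyte, osteoblast and mural sums. In the fibroblast list 3 of 7 tested genes are higher, and the median log2 fold change is 0.08.

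Summed levels of markers of several cell types differed between the genotypes, as the called members did. With 2 groups, any sum that differs by genotype moves either with the members that rose or with those that fell. In bulk RNA, fewer cells of a type and less RNA per cell cannot be told apart. Macrophage and osteoclast markers summed to 425 to 615 CPM in wt and 2801 to 6813 CPM in gld, with 9 higher and 1 lower of 10 tested of 20, and with Csf1r, Adgre1, Tyrobp, Fcer1g, Cd74, Acp5 and Dcstamp at 0. Lyz2, at a mean of 3236 CPM in gld, made up most of that sum there. In wt the sum was mostly Cd14, the gene that fell, and Ctsk, at means of 274 and 172 CPM. Of the 9 called higher, C1qa, C1qb, C1qc, Cd68, Laptm5, Marco and Mrc1 had 0 to 8 counts over the wt libraries. They passed the filter on low counts only through gld, so they could hardly come out lower. Library gld 3 was highest for the macrophage sum, at 6813 CPM, and for Id2, while gld 1 was lowest for the sum and highest for Bmp2 and Id3. Chondrocyte markers summed to 217 to 224 CPM in wt and 1057 to 1119 CPM in gld, with 5 of 6 tested of 12 higher and Col9a1, Col9a3, Cnmd and Snorc at 0. Sox9, at means of 215 CPM in wt and 788 CPM in gld, made up most of that sum. Acan and Matn3 had 0 counts in wt and Col11a2 had 14, and these genes too passed the filter only through gld. Osteoblast markers, summing to 16813 to 24628 CPM in wt and 63339 to 69925 CPM in gld, were 4 higher and 1 lower of 6 tested of 13. Col1a1 and Col1a2, at means of 27144 and 36358 CPM in gld, made up most of that sum, while Alpl was the gene that fell. Ibsp, with 3 counts in wt, also passed the filter only through gld. Fibroblast and tendon markers gave 304 to 397 CPM in wt and 867 to 945 CPM in gld, 3 higher (Tnmd, Dpt and Fmod) of 7 tested of 12, with Ly6a, Dpp4 and Scx at 0. The median log2 fold change of these 7 was 0.08, and Mkx, Thbs4, Dcn and Pdgfra did not pass, Dcn at −1.42 ± 0.66 and Pdgfra at −1.03 ± 1.26 (SE). Pericyte and smooth muscle markers summed to 5818 to 6338 CPM in wt and 2524 to 2709 CPM in gld, 4 lower of 5 tested of 12, with Pdgfrb, Kcnj8 and Mcam at 0. Acta2, at means of 4993 CPM in wt and 2251 CPM in gld, made up most of that sum. The lower genes were Acta2, Tagln, Cnn1 and Rgs5, while Notch3 did not pass, at 0.07 ± 0.33 (SE; edgeR adjusted p = 0.942). Glial and melanocyte markers summed to 74.7 to 101 CPM in wt and 98.0 to 138 CPM in gld, 1 higher of 4 tested of 9, with Sox10 at 0. Endothelial markers, of a cell type known for high Id1 and Id3, summed to 42.8 to 60.2 CPM in wt and 29.5 to 46.4 CPM in gld, with 1 lower of 3 tested of 12, and Pecam1, Cdh5, Tek, Tie1, Emcn, Erg, Egfl7 and Vwf were at 0. Many markers at 0, such as Pecam1, Tek, Tie1, Tyrobp, Pdgfrb and Sox10, have an end shared by several annotated transcripts. Csf1r, Cdh5 and Dpp4 do not. Genes with shared ends had 0 counts more often, as given above, so these zeros alone do not show that a marker was absent. The part of these cell types in the members' values was not tested.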

How the data were processed

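RNA of 6 libraries, 3 wt and 3 gld, was made into QuantSeq 3′ mRNA-Seq FWD libraries and read from 1 end over 75 nt, per the labels' protocols and the design text. Per the design text, Cutadapt was used for trimming and STAR for alignment, and per the submitters' processing notes the build was mm10, with FastQC, Trim Galore and DESeq2 also named. Which tool counted the reads, with which strand setting and annotation, is not given in the sources consulted. The authors deposited raw, whole-number counts of reads for each Ensembl gene. The 1 row without an identifier was left out, and 51883 of 57180 identifiers had a symbol. Positions are those of GENCODE M21 (GRCm38).

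Genes were kept by filterByExpr (about 10 counts in 3 libraries, 15 in total), scaled by TMM and tested with edgeR 4.0.16 under R 4.3.3 (quasi-likelihood test), gld against wt with no covariate, adjusted by Benjamini-Hochberg over all 8692 genes tested. The SE is the absolute log2 fold change over the square root of F. The test was tried on simulated data with 50 genes planted at each fold. It recovered 8% of them at 1.5-fold, 32% at 2-fold, 62% at 4-fold and 82% at 8-fold. Of 98 calls there, 6 were false. Only the planted genes differed in the simulation, while 1515 genes were called in the data. With fewer calls the adjustment asks for a smaller p, so these recovery rates can lie below those of the test on the data. Recovery was incomplete at every fold, so a gene that did not pass may still differ between the groups. limma 3.58.1 (voom) and DESeq2 1.42.0, other scalings and filters, a replicate block and leaving out each library were the alternatives. Counting intervals cover counting error only. Named genes were all 10 members, up to 4 called genes per pathway list by adjusted p (or up to 2 values), and the 2 nearest profiles per called member. The members and lists were chosen with earlier results of these data known. A gene of the antagonist list and a gene of the glial marker list are not reported here and were left out of the counts and sums of those lists.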

Additional observations from a re-analysis of the deposited data

How the results depend on the processing

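Each of the 5 called members kept its direction and its call in all 13 alternatives: RLE scaling, library size alone, DESeq2, limma-voom, no filter on low counts, a mean of at least 30 counts, a replicate block and leaving out each library in turn. So 3 members were higher and 2 lower in every one. Their log2 fold changes ran from 2.00 to 2.64 for Bmp2, 2.66 to 3.05 for Id2, 0.59 to 0.78 for Id3, −2.39 to −2.01 for Gdf6 and −1.43 to −1.21 for Gdf10. Gdf5 passed in none of the 12 that tested it, at −1.56 to −0.11. With 1 library left out, 684 to 867 genes were higher and 504 to 605 lower over all genes, and 5 to 7 and 8 to 9 of the other pathway genes. The replicate block gave 760 higher and 599 lower genes and, for Bmp2, an adjusted p = 0.0222. Same-numbered libraries had correlations of deviations between −0.023 and −0.015, so no pairing by number was seen. With 3 libraries per group such correlations cannot show that the libraries are unpaired. The calls on Bmpr1b (5 of 12) and Hes1 (8 of 13) were lost in the alternatives counted here, and the cause was not tested. Bmp3, Bmp4, Bmp6 and Id1 fell below the filter on low counts. Without it Bmp3 and Bmp4 were fitted and did not pass (edgeR adjusted p = 0.601 and 0.482), and Bmp6 and Id1, at 0 in every library, gave no value. The wt levels of Bmp2 and Id2 rest on 38 and 40 counts, which limits their precision.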
